A study of Homo sapiens with 18 samples.

Results

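The transcriptional response to a low dose of cocaine was examined by comparing 6 arrays, 3 of differentiated SH-SY5Y cells exposed to 1 µM cocaine and 3 of untreated cells (0 µM), all harvested at 6 h. They are 6 of the 18 arrays of a series that also holds 5 µM cocaine and a harvest at 24 h. The members were chosen by the time and the dose in the sample titles, and arrays with the same replicate number were compared with each other. SH-SY5Y is an established neuroblastoma line of human origin, and the cells of both groups had been kept for 7 days in 10 µM retinoic acid (RA) and then for 24 h in medium without it. They were then exposed to cocaine, or to none, for 30 min, after which the medium was replaced. RNA of 9 dishes per condition was pooled by 3 dishes, so each array stands for a pool and not for a dish. Signals are log2 values of Affymetrix U133 Plus 2.0 probe sets, groups of probes against a transcript or a family of transcripts, so a difference of 1 is a 2-fold change. Of 54675 probe sets, 24930 had a mean over the 9 arrays of 6 h above log2(40) and were tested, and those with a single gene symbol covered 11943 genes.

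Cocaine blocks the transporters that return dopamine, noradrenaline and serotonin to the cell that released them. In neurons with dopamine input, the resulting signals run through cyclic AMP, CREB and MAP kinases to immediate early genes, and later to genes of the cytoskeleton and the synapse. RA acts in another way, by binding nuclear receptors that sit on pairs of short half-sites in DNA and switch on, among others, the genes of its own breakdown.

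In this line, the 8 noradrenergic neuroblastoma markers that were measured (among them PHOX2A, GATA2, GATA3 and ISL1) were all above the signal limit, whereas TH, the first enzyme of dopamine synthesis, was below it in both groups, with means of 3.50 at 1 µM and 3.57 at 0 µM. SLC6A3, the dopamine transporter, was close to the limit of 5.32, with means of 5.36 at 1 µM and 5.26 at 0 µM. The vesicular transporter SLC18A2 and the dopaminergic transcription factor NR4A2 were also below the limit. Of 6 dopaminergic markers, 3 were above the limit, DDC, SLC18A1 and, barely, SLC6A3, so by RNA signal the defining markers of dopaminergic cells were at or below it. The study assessed TH protein in its differentiated cells by western blot, which these RNA signals do not measure. Of 7 markers of a mesenchymal state, 5 were above the limit, VIM, TWIST1, FN1, SNAI2 and CD44, and PRRX1 and YAP1 were below it. VIM had means of 12.39 at 1 µM and 11.85 at 0 µM, and TWIST1 had 12.2 and 12.3. Of 7 markers of immune, endothelial, glial and epithelial cells, SOX10 alone passed the limit, at 5.52 and 5.44 in 1 µM and 0 µM cells. The mean signal over these 7 markers was 4.58 to 4.65 at 1 µM and 4.51 to 4.54 at 0 µM.

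Before any change is read, 2 of the 3 untreated arrays have to be set apart. CYP26A1, an enzyme that breaks down RA, had log2 signals of 5.15, 4.95 and 5.61 on the 1 µM arrays 1, 2 and 3, against 5.01, 10.69 and 10.99 on the untreated arrays 1, 2 and 3. Its relative CYP26B1 had 8.35, 8.54 and 8.63 at 1 µM, against 8.48, 12.33 and 12.18 at 0 µM. The retinaldehyde reductase DHRS3 had 6.82, 7.06 and 7.20 at 1 µM, against 6.81, 10.78 and 10.66 at 0 µM. In all 3 genes the untreated array 1 lay with the treated arrays, and the untreated arrays 2 and 3 lay far above. RARB, an RA receptor whose own gene RA induces, had 8.12, 7.88 and 7.99 at 1 µM, against 8.41, 9.83 and 9.89 at 0 µM, so its groups did not overlap.

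The promoters were searched for the kind of element that RA receptors bind. It is shown for the RA-induced genes that held it. A direct repeat of the half-site AGGTCA, its variant AGTTCA, its variant GGGTCA or its variant GGTTCA, in any pairing and with a spacer of 5 bases, was searched on both strands of the RefSeq promoters of GRCh38.p14, from 250 bases before to 50 after each start. It was found in 0.106% of 27305 genes with such a promoter and in 2 of the 15 RA-induced genes that were tested and had one, RARB and CYP26A1. With a spacer of 2 or 1 bases, 0 of the 15 held it. The match of RARB starts at position -53 from a start site in chr3:25428170-25428266 (plus strand), and that of CYP26A1 at -90 in chr10:93073763-93073859 (plus strand), where the half-sites read on the opposite strand. Capitals mark the repeat with its spacer.
RARB: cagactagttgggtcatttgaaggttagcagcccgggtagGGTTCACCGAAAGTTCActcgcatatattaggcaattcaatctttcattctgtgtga
CYP26A1: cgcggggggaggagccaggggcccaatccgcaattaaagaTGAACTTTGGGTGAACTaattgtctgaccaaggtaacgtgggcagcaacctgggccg
A match is a sequence and not a measured binding site. The same search found the repeat in 0 of 729 genes with a promoter called only higher at 1 µM and in 2 of 1033 called only lower.

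Of 17 RA-induced genes tested, at the brightest probe set of each, 0 were called higher and 4 lower (NEDD9, PLAT, RARB and CYP26B1). Beside these stand the shares over all 11943 genes, of which 3.88% were called higher and 7.73% lower at the brightest probe set. The median change of the 17 genes was -0.33 on the log2 scale, and within the replicates it was -0.01, -0.50 and -0.42 in pairs 1, 2 and 3. The list's decrease thus was near 0 in the pair of the untreated array 1. None of these 4 genes was called once the untreated arrays 2 and 3 were left out (0 of 4), and 1 gene of the list was then called higher. Control probe sets also separated the groups. The spike-in bioD was at -1.53, -1.54 and -1.52 relative to the spike-in cre at 1 µM, against -1.11, -1.06 and -1.02 at 0 µM, and the 3′ probe set of GAPDH exceeded the 5′ one by 0.15 to 0.17 at 1 µM and by 0.21 to 0.25 at 0 µM (exact permutation p = 0.1 in both, 2-sided, the smallest that 3 arrays against 3 allow). The spike-ins bioB and bioC and the 3′ to 5′ difference of ACTB overlapped between the groups. The part of RA, hybridization and RNA quality in the changes that follow was not tested, and for each list the number called without the untreated arrays 2 and 3 is given, with single values where a call was lost or a change moved by much.

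**Figure D1:**
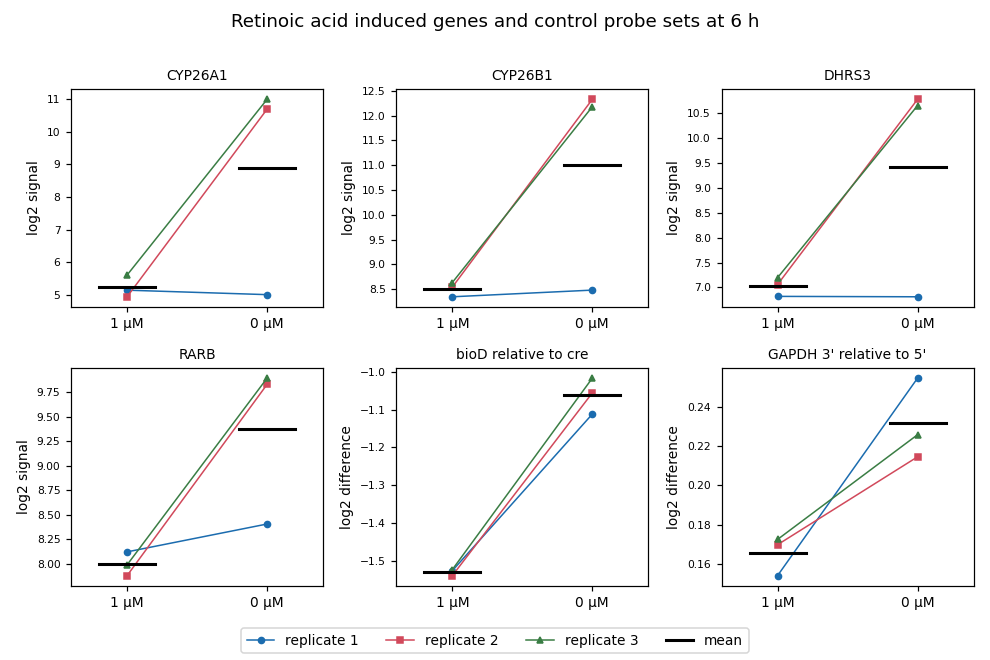
Log2 signals of 4 RA-induced genes and log2 differences of 2 control measures on the arrays of 1 µM (left) and 0 µM (right) cocaine at 6 h, with a line and a colour per replicate number and a black bar at each mean. In the genes, the untreated arrays 2 and 3 stand above the other 4 arrays (CYP26A1 at 10.69 and 10.99), whereas in bioD all 3 arrays of 1 µM lie below all 3 of 0 µM.

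With the replicate number in the fit, 2894 of 24930 probe sets (11.6%) were called at an adjusted p under 0.10, of which 1217 (4.88%) were higher and 1677 (6.73%) lower at 1 µM than at 0 µM. This count rested on the arrays and on the fit to an unusual extent. The study, whose methods state no replicate term, reported no expression differences at 1 µM at the same threshold. Without the replicate number, 0 were called here too (3498 at an unadjusted p under 0.05, smallest adjusted p = 0.129). It was also 0 when any of the 3 arrays of 1 µM or the untreated array 2 was left out, 57 without the untreated array 3, 4985 without the untreated array 1, and 976 to 1862 when an array of 5 µM, which enters only through the spread, was left out. On the 6 arrays alone, 0 were called (5002 at an unadjusted p under 0.05). Without the untreated arrays 2 and 3 together, 2073 (8.32%) were called, 705 higher and 1368 lower, and 724 of them were among the 2894, all in the same direction. That fit keeps the replicate number, so its 1 untreated array is compared within replicate 1, and a change rests mainly on pair 1. The arrays 2 and 3 of 1 µM enter only through their differences from the 5 µM arrays. The 5 µM arrays thus enter the change itself and not only the spread. The untreated array is assumed to vary as the other groups do. Since all 2894 calls already had in pair 1 the sign of the fit with all arrays, the shared direction was favoured from the start. The shares of all genes printed beside the gene lists belong to the fit with all arrays. Such shares at the brightest probe set are not given for the fit without the untreated arrays 2 and 3. The number of genes of a list called in that fit thus does not show whether the list differed from all genes.

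The changes were small. Their median was 0.27 among the increases and -0.25 among the decreases, and 75 increases and 84 decreases reached 0.5 on the log2 scale. In 1861 of the 2894 the arrays of 1 µM did not overlap with those of 0 µM, where 7.23% of all tested probe sets lay wholly higher and 9.91% wholly lower. All 3 paired differences had 1 sign in 2893 of them, which the fit favours, and in 44.3% of all tested probe sets. The direction of the calls went with the signal, since the dimmest 8310 probe sets held 478 increases and 292 decreases and the brightest 8310 held 339 increases and 804 decreases. The median change of all tested probe sets was -0.0047, and -0.03 after each array was centred on its median, which left 27.6% of the calls higher, against 42.1% as deposited and 51.6% after a further quantile normalization. The genes called lower were longer, with a median span of 57.0 kb in the annotation, against 29.8 kb for genes called higher and 29.6 kb for all tested genes. For 73 genes, different probe sets were called in opposite directions.

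Of the 12 largest increases, 4 were in genes that act on actin filaments, a grouping made after their values were seen. LMO7, an actin-binding protein of cell junctions, had 6.44, 6.31 and 5.78 at 1 µM, against 5.31, 5.27 and 4.66 at 0 µM, an increase of 1.10 ± 0.09 (log2, standard error of the fit, adjusted p = 0.0243). Its 3 untreated signals were below the limit of 5.32, so the probe set passed it only through the arrays with cocaine. WASL, which triggers branching of actin filaments, had 9.31, 9.10 and 8.87 at 1 µM, against 8.54, 8.29 and 8.17 at 0 µM, an increase of 0.76 ± 0.05 (adjusted p = 0.0243). This is a dimmer probe set of WASL, and its brightest one was not called. Its relative WASF2, which acts with Rac, had 8.13, 8.00 and 8.17 at 1 µM, against 7.37, 7.30 and 7.60 at 0 µM. Every array of 1 µM was above every untreated array in these genes, which was a condition for all of the 12 largest increases. PPP1R9A (neurabin), which ties actin to protein phosphatase 1 in neurites, had 6.80, 6.91 and 6.85 at 1 µM, against 6.36, 6.10 and 6.10 at 0 µM, an increase of 0.67 ± 0.08 (adjusted p = 0.0354). These 4 increases were also called without the untreated arrays 2 and 3, at 1.06 for LMO7, 0.78 for WASL, 0.83 for WASF2 and 0.44 for PPP1R9A. The neurite and actin list, with 55 genes tested, held as many decreases as increases at the brightest probe set, 3 (5.45%) of each. LMO7, the membrane-to-actin linker MSN (0.28) and the Arp2/3 subunit ARPC2 (0.16) rose, and TWF1 (-0.32) and drebrin, DBN1 (-0.17), were among the 3 that fell. With the untreated arrays 2 and 3 set aside, 1 of the 55 was called higher and 4 lower, and MSN, ARPC2 and DBN1 were not called.

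HSP90B1, the HSP90 chaperone of the endoplasmic reticulum, had 7.35, 7.33 and 7.10 at 1 µM, against 6.43, 6.53 and 6.39 at 0 µM (0.81 ± 0.06, adjusted p = 0.0243). A brighter probe set of the gene had 10.59, 10.49 and 10.34 at 1 µM, against 10.18, 10.02 and 10.09 at 0 µM (0.38 ± 0.05). Both are of a type whose probes may bind other transcripts. So are, among others, the probe sets whose changes are given here for DEPDC1, MINDY2, FGFR1, NEFL and MEIS3, and some of MALAT1. The transcription factor ELF1 had 8.18, 7.99 and 8.11 at 1 µM, against 7.58, 7.03 and 7.36 at 0 µM (0.77 ± 0.09, adjusted p = 0.03). Its other tested probe set had 8.44, 8.48 and 8.45 at 1 µM, against 8.81, 8.44 and 8.51 at 0 µM and was not called, so the increase was seen at 1 of 2 probe sets. The other genes of the 12 largest increases were DEPDC1 (0.92), SMCHD1, a chromatin protein (0.91, while a brighter probe set of it fell by 0.29), the RNA helicase DDX17 (0.80), the chloride transporter CLCN5 (0.75), STEAP1 (0.74) and NUDT3 (0.68). DDX17 was uneven, with 6.94, 6.54 and 5.81 at 1 µM, against 5.51, 5.66 and 5.73 at 0 µM, its pair 3 differed by little, and its change was 1.39 without the untreated arrays 2 and 3. Without the untreated arrays 2 and 3, STEAP1 (0.12), DEPDC1 (0.56) and NUDT3 (0.39) were not called.

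In some of the largest decreases, the untreated array 1 lay well below the untreated arrays 2 and 3. RARB fell by 1.38 ± 0.35 (adjusted p = 0.074), and its second probe set, at 5.66, 5.71 and 5.75 in 1 µM cells and at 6.00, 7.34 and 7.41 in 0 µM cells, fell by 1.21 ± 0.28. PRKCH, a protein kinase C, had 7.85, 7.49 and 7.85 at 1 µM, against 8.00, 9.24 and 9.19 at 0 µM. PTPRH, a receptor tyrosine phosphatase, had 6.12, 6.12 and 6.04 at 1 µM, against 6.17, 7.39 and 7.35 at 0 µM. In these genes the untreated arrays 2 and 3 were far above the untreated array 1, as in CYP26A1, and without them the changes were -0.24 for RARB and -0.12 for both PRKCH and PTPRH, none of them called. Without these arrays the changes of PPP1R3B (-0.93), ARHGAP20 (-0.76) and ALKBH8 (-0.76) became -0.26, -0.25 and -0.31. In ARHGAP20 the untreated array 1 was not low, with 8.125, 8.110 and 7.837 at 0 µM. Its 1 µM array 1 was high, with 7.825, 7.101 and 6.873 at 1 µM.

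Other decreases were seen in every pair, though not at 1 size. ERI1, an exonuclease that trims histone mRNA ends, had 6.91, 7.35 and 7.17 at 1 µM, against 7.72, 8.44 and 8.05 at 0 µM, and fell by 0.92 ± 0.08 (adjusted p = 0.0243). BCOR, a transcriptional corepressor, had 8.89, 9.32 and 9.43 at 1 µM, against 9.49, 10.26 and 10.18 at 0 µM, and fell by 0.76 ± 0.11. NFIA, a transcription factor of neural development, had 8.61, 8.82 and 8.91 at 1 µM, against 9.09, 9.55 and 9.83 at 0 µM, and fell by 0.71 ± 0.11. MINDY2, a deubiquitinase, had paired differences of -0.53, -0.69 and -1.29, a wider spread than the -0.81, -1.08 and -0.88 of ERI1. ERI1, BCOR, NFIA, MINDY2 (-0.84) and the noncoding RNA LINC00622 (-0.76) were called without the untreated arrays 2 and 3 too, at -0.79 for ERI1, -0.49 for BCOR, -0.42 for NFIA, -0.69 for LINC00622 and -0.53 for MINDY2.

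**Figure D2:**
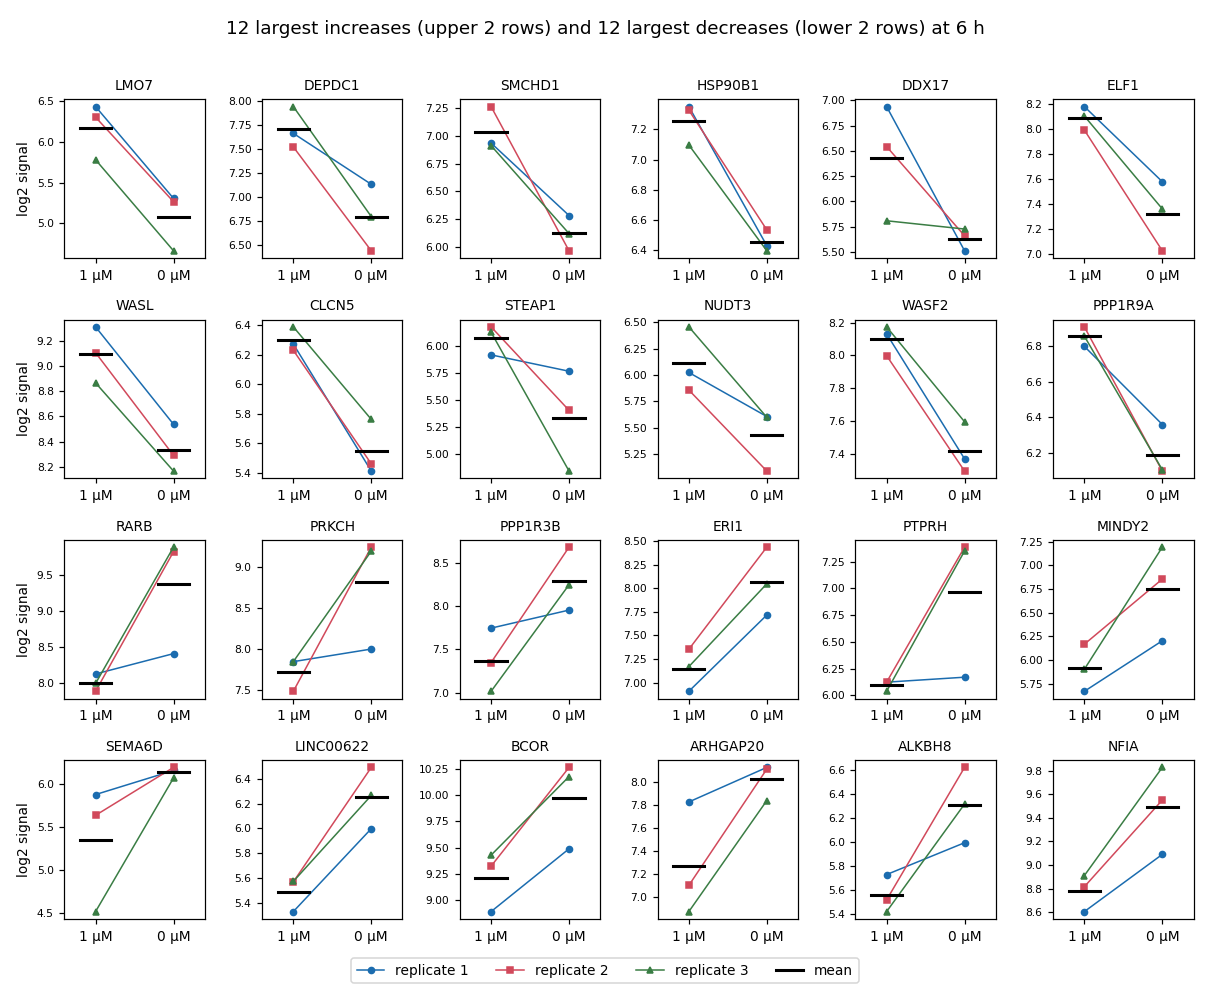
Log2 signals of the 12 genes with the largest increases (upper 2 rows) and the 12 with the largest decreases (lower 2 rows) among called probe sets whose groups do not overlap, at 1 µM (left) and 0 µM (right), with a line per replicate number and a black bar at each mean. Each panel has its own scale, so slopes cannot be compared between genes. ERI1 fell in parallel in the 3 pairs, whereas RARB, PRKCH and PTPRH fell mainly in pairs 2 and 3.

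Of 45 genes of G2 and mitosis, 0 rose and 9 (20%) fell at the brightest probe set, beside 7.73% lower over all genes, with a median change of -0.07 over the 45, against -0.01 over all 11943 genes. KIF23, a kinesin of the midbody, had 8.22, 8.58 and 8.67 at 1 µM, against 8.58, 8.84 and 8.97 at 0 µM, and fell by 0.31 ± 0.04 (adjusted p = 0.0437). KIF11, which separates the spindle poles, had 9.60, 9.82 and 9.89 at 1 µM, against 9.99, 10.00 and 10.07 at 0 µM, and fell by 0.25 ± 0.05. The pairs moved together, although the arrays of the 2 groups overlapped in KIF23. KIF14, ECT2, NUSAP1, MKI67, CENPF, NCAPG and TTK fell by 0.15 to 0.29. NUSAP1 had another probe set that rose by 0.37. Leaving out the untreated arrays 2 and 3 gave 6 of the 45 genes called lower and 0 higher, and 5 of the 9 were among them. Of 45 genes of G1, S phase and replication, 0 rose and 2 (4.44%, below the share of all genes) fell, the cell cycle inhibitors CDKN1B (-0.19) and RB1 (-0.23), and RB1 was also called without the untreated arrays 2 and 3.

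Of 38 genes of MAP kinase signalling and its feedback, 1 rose and 8 (21.1%) fell. DUSP6, a phosphatase that switches off ERK, had 11.03, 10.70 and 10.81 at 1 µM, against 11.31, 11.36 and 11.32 at 0 µM, and fell by 0.48 ± 0.10 (adjusted p = 0.0538). The feedback inhibitors SPRY4 (-0.24), SPRED1 (-0.31) and SPRED2 (-0.23), the kinases MAPK8, MAPK10 and RPS6KA1 (-0.23 to -0.24) and the exchange factor SOS2 (-0.20) fell as well. DUSP4, a nuclear phosphatase of the same pathway, rose by 0.33 ± 0.07, with 10.57, 10.54 and 10.37 at 1 µM, against 10.44, 10.16 and 9.91 at 0 µM. At a dim probe set the receptor FGFR1 rose by 0.44 ± 0.04, with 6.30, 6.25 and 6.25 at 1 µM, against 5.93, 5.80 and 5.76 at 0 µM. Without the untreated arrays 2 and 3, 2 of the 38 genes were called lower and 0 higher. Of the 9 named, SPRED2 alone was still called (-0.37), whereas DUSP6 (-0.22, adjusted p = 0.197) and DUSP4 (0.17) were not, and the dim probe set of FGFR1 was (0.37).

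Of 22 genes of sterol and fatty acid synthesis, 0 rose and 5 (22.7%) fell. These were SREBF2, the transcription factor that drives cholesterol synthesis (-0.19, while a dimmer probe set of it rose by 0.17), INSIG1, which holds that factor back (-0.32), the cholesterol carrier STARD4 (-0.43), the elongase ELOVL5 (-0.27) and the desaturase SCD (-0.30). ELOVL5 had 11.24, 11.26 and 11.20 at 1 µM, against 11.53, 11.53 and 11.46 at 0 µM, without overlap (adjusted p = 0.0437). With the untreated arrays 2 and 3 left out, STARD4, ELOVL5 and INSIG1 were called lower, and SREBF2 (-0.27) and SCD (-0.15) were not called. SQLE, an enzyme of the same path, rose at a dimmer probe set, by 0.44 ± 0.07, and was not called without these arrays (0.29). Of 24 genes of the amino acid response and tRNA charging, 0 rose and 5 (20.8%) fell, among them the tRNA synthetases LARS1 (-0.24, while a dim probe set of it rose by 0.65), IARS1 (-0.21) and TARS1 (-0.18). Of the 24, LARS1 alone was called lower when the untreated arrays 2 and 3 were left out.

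Of 39 axon guidance genes, 1 (2.56%) rose and 6 (15.4%) fell. EFNB2, a membrane-bound ephrin, had 10.53, 9.86 and 9.87 at 1 µM, against 10.73, 10.55 and 10.58 at 0 µM, and fell by 0.53 ± 0.11. SEMA6D, a semaphorin, had 8.50, 8.44 and 8.39 at its brightest probe set at 1 µM, against 8.65, 9.30 and 9.20 at 0 µM, and fell by 0.60 ± 0.16, and its 2 other called probe sets fell by 0.27 and 0.80. The netrin receptor UNC5B (-0.25), the Slit receptor ROBO1 (-0.22), SLIT3 (-0.19) and PLXNA3 (-0.25) fell, and the ephrin EFNA1 rose (0.24). When the untreated arrays 2 and 3 were left out, EFNB2 changed by -0.19 (adjusted p = 0.15) and SEMA6D at that probe set by -0.11, and neither was called. Of the 39 genes, 3 were then called lower and 0 higher, and SLIT3 was the 1 of the 7 above among them. In the extracellular matrix list, 1 of 49 genes rose (2.04%) and 5 fell (10.2%), close to the shares of all genes. TIMP3, a metalloproteinase inhibitor, had 10.15, 9.33 and 8.85 at 1 µM, against 10.53, 10.07 and 9.41 at 0 µM. It fell in every pair (0.56 ± 0.09, adjusted p = 0.0437), although the replicates of each group were far apart, and it fell by 0.34 without the untreated arrays 2 and 3, when 3 of the 49 genes were called lower and 1 higher.

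In 6 lists there were increases and no decrease at the brightest probe set, beside 3.88% higher over all genes. Of 26 NRF2 and oxidative stress genes, 5 (19.2%) rose and 0 fell. NQO1, a quinone reductase, had 8.64, 8.16 and 7.99 at 1 µM, against 8.50, 7.86 and 7.59 at 0 µM (0.28 ± 0.08, adjusted p = 0.0895), and the peroxidase PRDX6 had 11.94, 11.89 and 12.01 at 1 µM, against 11.82, 11.65 and 11.70 at 0 µM (0.22 ± 0.05). The malic enzyme ME1 (0.24) and the metallothioneins MT1X (0.27) and MT2A (0.18), whose probes may bind their close relatives, were the others. The median change of the 26 genes was 0.10 and was 0.08, 0.09 and 0.07 in pairs 1, 2 and 3. Of 32 proteasome subunits, 3 (9.38%) rose (PSMB6, PSMB2 and PSMD11, by 0.16 to 0.23) and 0 fell. Of 27 endoplasmic reticulum chaperones and unfolded protein response genes, HSP90B1, SDF2L1 (0.24) and SEC61B (0.14) rose (11.1%) and 0 fell. Without the untreated arrays 2 and 3, 0 of the 26 NRF2 genes were called, 1 of the proteasome subunits was called lower, and HSP90B1 was still called higher. In 2 of the 6 lists the share was near or below that of all genes. Of 43 nuclear pore and transport genes, NUP35 (0.17) and NUP37 (0.18) rose at the brightest probe set (4.65%). At any probe set 3 rose and 7 fell, where over all genes 8% rose and 11.1% fell at any. Among the 7 were the importins IPO5 (-0.40), KPNA6 (-0.27) and KPNA1 (-0.23). The list had 2.7 tested probe sets per gene, against 1.79 over all genes, so a call at any probe set had more chances. Once the untreated arrays 2 and 3 were left out, 4 of the 43 were called lower, 0 higher, and neither NUP35 nor NUP37 was called. Of 63 nuclear subunits of the respiratory chain, COX8A (0.17) alone rose (1.59%), and it was not called without these arrays (0.10, adjusted p = 0.432). The sixth list was that of catecholamine genes.

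Of 21 catecholamine genes, 2 (9.52%) rose, PTS, an enzyme of the cofactor that TH needs (0.19), and the granule protein CHGB (0.18), and 0 fell. SLC6A2, the noradrenaline transporter and a direct target of cocaine, had 7.59, 7.48 and 6.89 at 1 µM, against 7.78, 7.67 and 7.15 at 0 µM at 1 probe set, a decrease of 0.21 ± 0.05 (adjusted p = 0.058) with overlapping groups. No catecholamine gene was called without the untreated arrays 2 and 3. Of 44 genes of CREB, cyclic AMP and calcium signalling, 3 (6.82%) rose and 3 fell. CAMKK2, a kinase upstream of calmodulin-dependent kinases, had 9.38, 9.33 and 9.46 at 1 µM, against 9.01, 8.95 and 9.09 at 0 µM (0.37 ± 0.04, adjusted p = 0.0323), and ATF2, a relative of CREB, had 10.10, 10.48 and 10.47 at 1 µM, against 10.67, 10.87 and 10.67 at 0 µM and fell by 0.38 ± 0.07. Both changes were also called without the untreated arrays 2 and 3. Of 21 immediate early genes, 0 were called at the brightest probe set. At dimmer ones JUN had 6.33, 6.51 and 6.27 at 1 µM, against 5.74, 5.85 and 5.83 at 0 µM (0.56 ± 0.06, adjusted p = 0.0254), and KLF6 (0.61) and FOSL2 (0.52) rose as well. The untreated mean of FOSL2 was 5.00, below the limit of 5.32. JUN (0.57) and KLF6 (0.38) were also called without the untreated arrays 2 and 3, and FOSL2 (0.21, adjusted p = 0.171) was not. The binding motif of CREB, TGACGTCA, was in the promoter of 3.84% of the genes called only higher and 4.74% of those called only lower, against 3.94% of all tested genes.

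**Figure D3:**
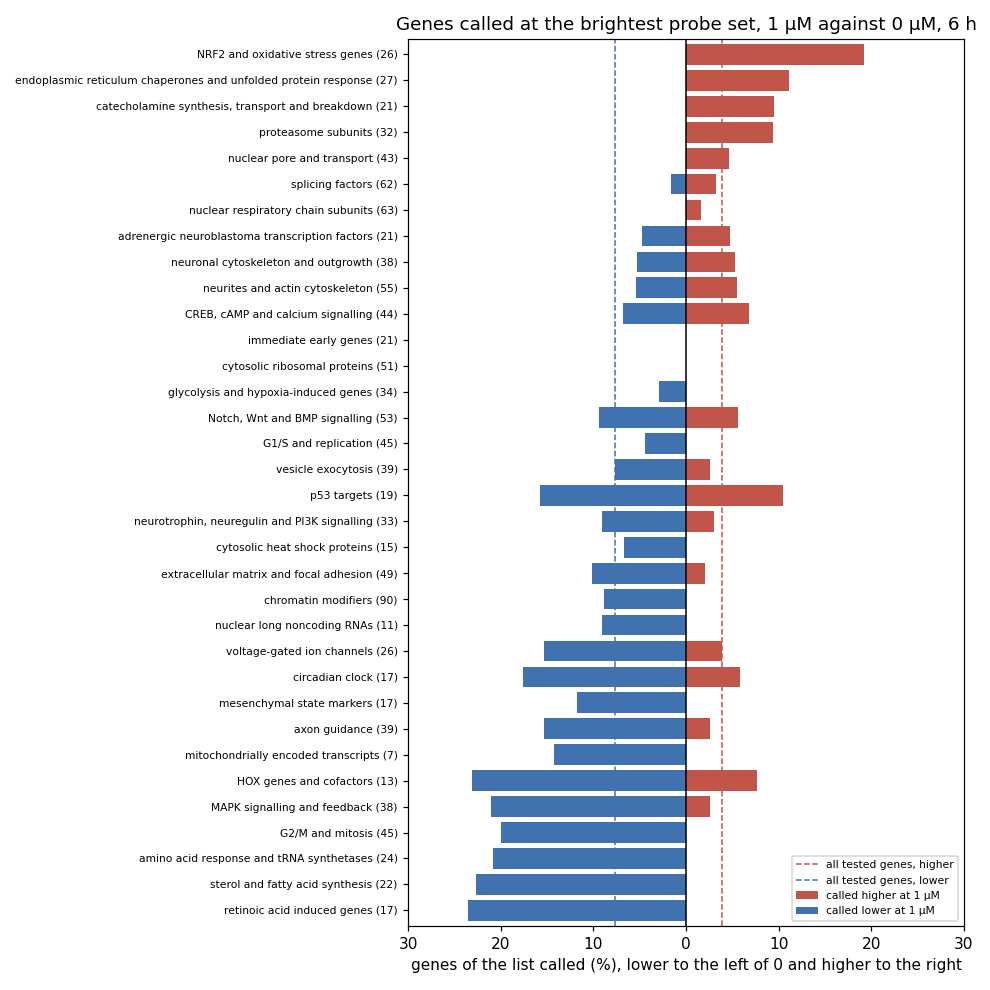
Share of the tested genes of each of 34 lists called higher (red, to the right of 0) or lower (blue, to the left) at the brightest probe set in 1 µM against 0 µM cells at 6 h, with the number tested in brackets and broken lines at the shares of all tested genes, 3.88% higher and 7.73% lower. RA-induced, sterol, tRNA synthetase, mitotic and MAP kinase genes are at the lower end, and NRF2 genes at the upper end.

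In genes of RNA processing and chromatin, the direction went with the probe set. Of 62 splicing factors, 2 rose and 1 fell at the brightest probe set, but 11 rose and 3 fell at any, where over all genes 8% rose and 11.1% fell at any. The 62 genes had 3.06 tested probe sets each, against 1.79 over all genes, so that a call at any probe set had more chances in this list. SRRM2, a scaffold of nuclear speckles, had 9.96, 9.59 and 9.57 at 1 µM, against 9.01, 9.06 and 9.22 at 0 µM (0.61 ± 0.10), and SF3B1, of the U2 particle, had 9.57, 9.31 and 9.13 at 1 µM, against 8.91, 8.92 and 8.77 at 0 µM (0.47 ± 0.07). Both were called without the untreated arrays 2 and 3. Of 90 chromatin modifiers, with 2.5 probe sets each, 0 rose and 8 fell at the brightest probe set (8.89%, near the 7.73% of all genes), led by BRD3 (-0.29), whereas at any probe set 11 rose and 20 fell. Of these 8, 1 was still called without the untreated arrays 2 and 3, and BRD3 was not. The demethylase KDM4B had 8.52, 8.30 and 8.46 at 1 µM, against 8.04, 7.80 and 7.86 at 0 µM, at such a probe set (0.53 ± 0.05, adjusted p = 0.0243), and the remodeller EP400 rose by 0.57 ± 0.06. MALAT1, a long nuclear RNA, had probe sets called in both directions. It rose by 0.41 and 0.31 at 2 of them and fell by 0.77 ± 0.20 at another, at 10.76, 11.66 and 10.78 in 1 µM cells and 11.62, 12.14 and 11.76 in 0 µM cells. No direction can be given for the gene. The nuclear RNA TUG1 fell by 0.34 ± 0.05, and its groups did not overlap.

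Of 7 genes taken from those that the study followed by PCR at 5 µM, ELF1, PPP1R9A and SEMA6D are given above. ENC1, an actin-binding protein of the nervous system, had 7.78, 7.99 and 7.72 at 1 µM, against 7.53, 7.31 and 7.25 at 0 µM (0.47 ± 0.10, adjusted p = 0.0538), and its brighter probe set had a change of 0.18 and was not called. The RNA-binding protein IGF2BP3 rose by 0.43 ± 0.12 at 1 of 3 probe sets, with overlapping groups. For NRG1, a growth factor of the ERBB receptors, 1 probe set fell by 0.27 ± 0.07 and the brighter one had a change of 0.41 that was not called (adjusted p = 0.102). NFAT5, a transcription factor of the response to osmotic stress, had 3 probe sets with changes of -0.16, 0.23 and -0.25, none of them called. ENC1, IGF2BP3 and NRG1 were not called without the untreated arrays 2 and 3. The reference genes GAPDH (-0.01 to 0.04 at 3 probe sets) and HPRT1 (0.13) were not called.

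At 24 h, the same dose gave 0 of 27304 probe sets called (2293 at an unadjusted p under 0.05, smallest adjusted p = 0.544), and also 0 without the replicate number (938 at an unadjusted p under 0.05). The change at 6 h differed from that at 24 h in 1084 of 24930 probe sets (4.35%), 340 of them with the higher value at 6 h, and in 840 of the 2894 that were called at 6 h. The 2894 were chosen by their change at 6 h, which favours such a difference. The count of 1084 became 1 without the replicate number or without the untreated array 2 of 24 h, 16 without the array 1 of 1 µM at 6 h and 20 without the array 2 of 1 µM at 24 h. The probe sets called higher at 6 h had a median change of 0.02 at 24 h and those called lower one of 0.01, beside 0.02 for all tested probe sets. HSP90B1 changed by -0.15 at 24 h, a difference of 0.95 from 6 h (adjusted p = 0.00498), and WASL by -0.36, a difference of 1.12 (adjusted p = 0.0222). Both values are of the dimmer probe sets given above. ERI1 changed by -0.02 (adjusted p of the difference = 0.0222). PER2, a clock gene, was higher by 0.39 ± 0.06 at 6 h and had the same change of 0.38 at 24 h, where it was not called, and it was not called at 6 h without the untreated arrays 2 and 3 (adjusted p = 0.108). The times were normalized separately, so their levels were not compared.

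**Figure D4:**
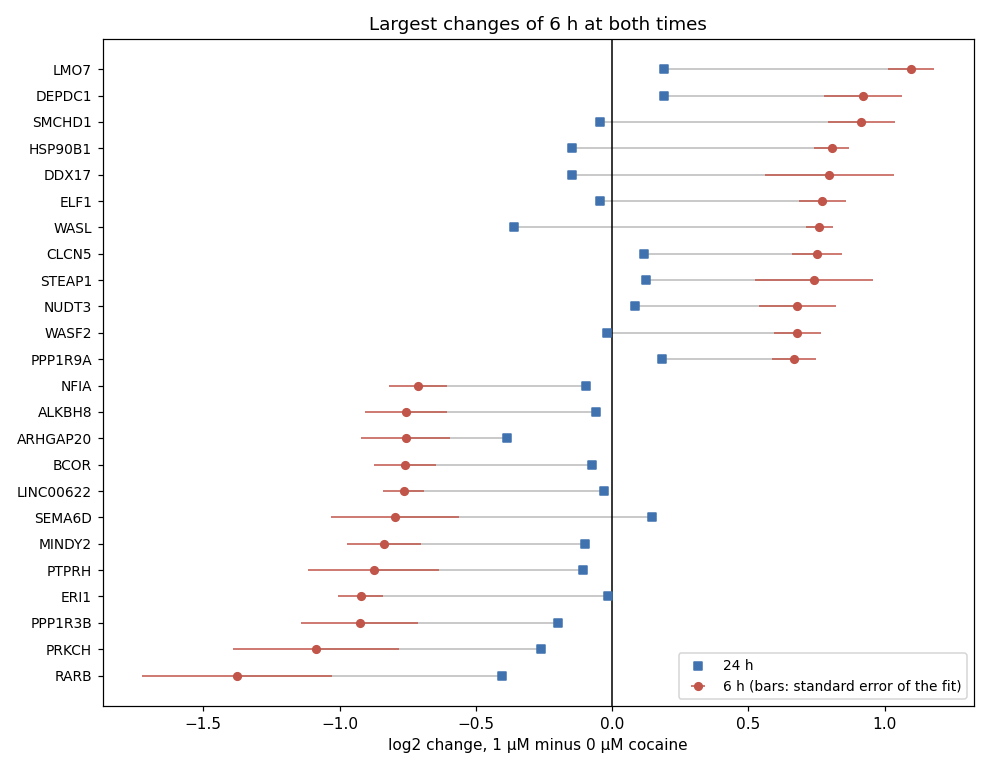
Log2 change between 1 µM and 0 µM cocaine at 6 h (circles, bars for the standard error of the fit) and 24 h (squares) for the 24 genes with the largest changes at 6 h. At 24 h the changes lie between -0.41 (RARB) and 0.19, and none was called there.

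Between 5 µM and 1 µM at 6 h, 0 of 24930 probe sets were called (3206 at an unadjusted p under 0.05, smallest adjusted p = 0.12), and also 0 without the replicate number (1556 at an unadjusted p under 0.05). Without the untreated array 1, which enters this comparison only through the spread, 634 were called. A count of 0 here does not show that the doses acted alike. The comparisons of 1 µM and 5 µM with untreated cells share the untreated arrays. For LMO7 the means were 5.08 at 0 µM, 6.17 at 1 µM and 6.17 at 5 µM. For HSP90B1 they were 6.45, 7.26 and 7.57 in the same order of doses, for RARB 9.37, 8.00 and 8.11, and for ERI1 8.07, 7.14 and 7.25. They were 6.25, 5.49 and 6.09 for LINC00622 and 6.75, 5.91 and 6.48 for MINDY2. The mean at 5 µM was closer to that at 1 µM in the first 4 of these genes and closer to that at 0 µM in LINC00622 and MINDY2.

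**Figure D5:**
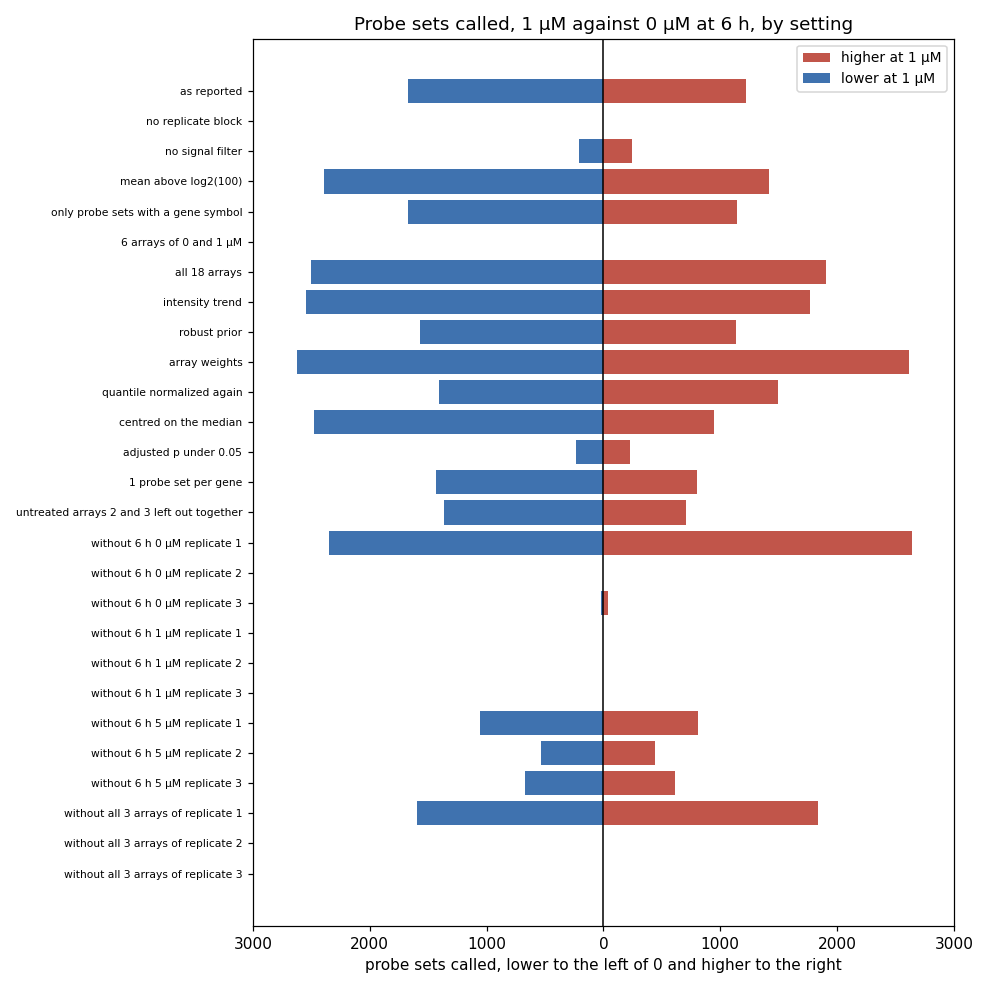
Number of probe sets called higher (red) and lower (blue) at 1 µM than at 0 µM at 6 h, for the fit as reported and for each other setting. The count is 2894 as reported, 0 without the replicate block or when any 1 of the 3 arrays of 1 µM was left out, and 4985 without the untreated array 1.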

How the data were processed

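The authors deposited log2 values computed with RMA (affy) for each time on its own, and the table still held every probe set. Versions are not given in the sources used here. The 9 arrays of 6 h were fitted with limma 3.58.1 in R 4.3.3, with dose and replicate number as terms, with Benjamini-Hochberg adjustment over 24930 probe sets (62 control probe sets were left out). The difference between times was a contrast over 18 arrays. Single measures were compared by exact permutation tests.

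The labels give the 3 doses the same replicate numbers. Deviations from group means correlated at 0.371 to 0.764 in 9 same-numbered pairs of 6 h and at -0.625 to 0.0842 in 18 others, so the numbers were taken to pair the arrays, although the methods of the study state no such term. The labels speak of biological replicates, but these are pools of dishes of 1 cell line. The 5 µM arrays carry the words for untreated controls besides their dose, which was used.

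Symbols came from the array annotation, updated through RefSeq (GRCh38.p14): of the tested probe sets, 21434 had 1 symbol, 1021 several and 2475 none. The comparison, the genes and the lists were chosen with earlier results of these data known. Named were the 12 largest increases and decreases among calls with groups that did not overlap and 3 paired differences of 1 sign. Up to 3 members per list with the smallest p, genes followed up by the study and a fixed set of controls were added. Further called members were named after their values were seen. Alternatives were the fit without the block, other filters, normalizations, priors and arrays left out. Plots were drawn with matplotlib in Python.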

Additional observations from a re-analysis of the deposited data

Results flagged for a closer look

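The change between 1 µM and 0 µM cells at 6 h differed from that at 24 h, at an adjusted p under 0.10 of the difference itself over all 18 arrays, in 55 of the 163 probe sets of the genes that are given with values here. Over all tested probe sets it differed in 1084 of 24930 (4.35%). Most of the genes were named for their changes at 6 h, so a larger share among them was favoured by the choice. In the 55, the change at 6 h was above that at 24 h in 23 and below it in 32. On the log2 scale, the change at 6 h minus that at 24 h was largest for WASL 1.12, SMCHD1 0.96, HSP90B1 0.95, LMO7 0.90, ELF1 0.81, SF3B1 0.80, MALAT1 0.77, DEPDC1 0.73, WASF2 0.70, CLCN5 0.64 and KDM4B 0.63. It was smaller for EP400 0.56, MALAT1 0.52, FGFR1 0.50, SQLE 0.49, JUN 0.49, ID1 0.48, CAMKK2 0.47, HSP90B1 0.38, TCF7L1 0.32, TP53I3 0.28, PTS 0.21 and MEIS3 0.20. A gene that stands more than once has several such probe sets. Differences below 0 were found for ERI1 -0.91, MINDY2 -0.74, LINC00622 -0.73, ALKBH8 -0.70, BCOR -0.69, NFIA -0.62, NEFL -0.60, TIMP3 -0.48, NR1D2 -0.46, KIF23 -0.45, IPO5 -0.44, KIF11 -0.43, SCN3A -0.43, KIF14 -0.42 and TUG1 -0.41. Smaller ones were found for APC -0.37, SLC6A2 -0.36, BMAL1 -0.34, TP53INP1 -0.34, UNC5B -0.34, NCAPG -0.33, RRM2B -0.33, LARS1 -0.32, PER3 -0.32, SPRED2 -0.31, PBX3 -0.30, SPRY4 -0.30, KPNA6 -0.30, KPNA1 -0.28, IARS1 -0.27, BRD3 -0.26 and ELOVL5 -0.26. In the RA-induced genes CYP26A1 (-2.05), CYP26B1 (-1.48), DHRS3 (-1.58) and RARB (-0.97 and -1.05 at 2 probe sets) the difference was not called. The times were normalized separately, and the count of differences depended on the untreated array 2 of 24 h, without which 1 of 24930 probe sets differed. Groups of 3 arrays were not tested for outliers.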

How the results depend on the processing

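The count of 2894 changed probe sets at 6 h was 0 without the replicate block, 0 on the 6 arrays of 1 µM and 0 µM alone, 456 without the signal filter, 454 at an adjusted p under 0.05, 4412 on all 18 arrays and 5234 with array weights, the cause of which was not tested. It was 0 to 4985 when a single array or all 3 arrays of a replicate number were left out. It stayed within 1.5 times of 2894 with only named probe sets, an intensity trend, a robust prior, another quantile normalization and median centring (2701 to 4313). A limit of log2(100) gave 3809 of 17735 probe sets and 1 probe set per gene gave 2237 of 11943, against 2894 of 24930. Fewer probe sets were tested in these 2 settings and the share called was larger, so their counts are not directly comparable with 2894. For the difference between the times, 1084 became 1 without the replicate block and 1 to 1192 with an array left out. The comparison of 5 µM with 1 µM gave 0 to 634 with an array left out and 0 without the block, and that at 24 h gave 0 under every alternative run. Relative bioD was -0.47 (1 µM minus 0 µM) and -0.51 without cre. In 2893 of the 2894 calls the 3 paired differences had 1 sign, so a change of direction was unlikely from the start. No named probe set that was called changed its direction under any of these alternatives. Of 127 such probe sets, 53 were called without the untreated arrays 2 and 3, 0 without the replicate block and 0 when any 1 of the 3 arrays of 1 µM was left out. With 3 arrays a group, 4 residual degrees of freedom and dim probe sets close to the limit, the number of arrays limits the precision.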

Other observations

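Several groups beside those above held calls in both directions. Of 53 genes of Notch, Wnt and BMP signalling, 3 (5.66%) rose and 5 (9.43%) fell at the brightest probe set, beside 3.88% and 7.73% of all genes. ID1, a target of BMP signals that restrains differentiation, had 11.22, 11.45 and 11.24 at 1 µM, against 10.88, 10.81 and 10.47 at 0 µM (0.58 ± 0.10, adjusted p = 0.0437), while the BMP receptor BMPR1B (-0.36) and the shared transducer SMAD4 (-0.31) fell. TCF7L1, a Wnt-pathway repressor, rose by 0.37 ± 0.06, and APC, which promotes the breakdown of β-catenin, fell by 0.46 ± 0.07 with overlapping groups. Without the untreated arrays 2 and 3, ID1 (0.32) was called and TCF7L1 (0.24) and APC (-0.33) were not. Of 17 circadian clock genes, PER2 rose and NR1D2 (-0.35), BMAL1 (-0.21) and PER3 (-0.29) fell. BMAL1 had 7.90, 7.89 and 7.90 at 1 µM, against 8.19, 7.98 and 8.13 at 0 µM, without overlap. Of 19 p53 targets, TP53I3 (0.26) and FAS (0.39) rose and RRM2B (-0.31), TP53INP1 (-0.37) and CCNG1 (-0.23) fell. When the untreated arrays 2 and 3 were left out, 2 of the 53, 1 of the 17 and 1 of the 19 genes were called lower, and 2, 0 and 0 higher.

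Of 13 HOX genes and cofactors, 1 rose (MEIS3, 0.16) and 3 had negative changes that were called (PBX3 at -0.25, HOXD10 at -0.49 and HOXD9 at -0.38), which is 7.69% and 23.1% of a short list. Leaving out the untreated arrays 2 and 3 left 0 of these 4 called, with HOXD10 at -0.13 and HOXD9 at -0.07, and 1 gene of the list was then called higher. HOXD10 had 6.06, 6.27 and 6.27 at 1 µM, against 6.27, 6.92 and 6.88 at 0 µM, so its untreated arrays 2 and 3 stood apart from array 1 as those of CYP26A1 did. VIM, an intermediate filament, had 12.45, 12.42 and 12.29 at 1 µM, against 12.38, 11.66 and 11.50 at 0 µM and was not called (adjusted p = 0.101). PHOX2A, a transcription factor of noradrenergic neurons, had 11.34, 11.06 and 11.10 at 1 µM, against 11.33, 11.78 and 11.72 at 0 µM and was not called. In VIM and PHOX2A the untreated array 1 again lay with the 1 µM arrays. NEFL, a neurofilament, had 7.79, 7.92 and 7.39 at 1 µM, against 8.43, 8.68 and 7.73 at 0 µM at 1 probe set, and fell by 0.58 ± 0.10 in pairs that all moved the same way. Of 7 mitochondrial transcripts, 1 fell, COX3 (-0.64 ± 0.09), with 8.56, 8.71 and 8.72 at 1 µM, against 9.14, 9.35 and 9.42 at 0 µM, at a probe set whose probes may bind other transcripts. NEFL (-0.60) was called without the untreated arrays 2 and 3, and COX3 (-0.49, adjusted p = 0.103) was not.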
